A study of Mus musculus with 6 samples.

Results

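The genes described here are those whose symbols name the subunits of the 5 oxidative phosphorylation complexes and the assembly proteins that share these prefixes. All rows of the count table were taken whose symbol began with Nduf, Uqcr, Cox4i, Cox5, Cox6, Cox7, Cox8 or Atp5, was Sdha, Sdhb, Sdhc or Sdhd, or began with mt-Nd, mt-Co, mt-Atp or mt-Cytb, without symbols containing -ps (pseudogenes). This rule used no measured value and gave 106 of the 49568 gene symbols, 93 encoded in the nucleus and 13 in mitochondrial DNA. Whole lungs of 3 TNF-Tg mice and 3 WT littermates, all females of 4 months on a C57BL/6 background, were sequenced as bulk RNA from poly(A)-selected stranded libraries with single-end reads of 100 bases. TNF-Tg mice of the 3647 line carry a human TNF transgene and develop arthritis and pulmonary hypertension, and WT littermates lack it. All 6 mice are of 1 sex and 1 age, and every cell of the lung, including blood and vessel cells, contributes to a library. The human transgene was not analysed here.

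Oxidative phosphorylation is the last stage of respiration in mitochondria. Complex I takes electrons from NADH and complex II from succinate, coenzyme Q carries them to complex III, and cytochrome c carries them to complex IV, which reduces oxygen to water. Complexes I, III and IV pump protons across the inner membrane, and complex V, the ATP synthase, lets them flow back and makes ATP. Complexes I, III, IV and V are built from subunits of both genomes, and complex II from nuclear subunits only. The mitochondrial genes are transcribed as long precursors that cover most of the circular genome and are cut into shorter RNAs, most of which receive poly(A) tails. Several subunits of complex IV exist as a general form and as a second form that is found mainly in muscle, in vessel wall and lung cells or in testis.

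Total counts ran from 25396923 to 32529408 per lung, and all 3 TNF-Tg lungs were below all 3 WT lungs. A level of 3 counts, the smallest taken as detected, was 0.0922 to 0.118 CPM. The lung label was checked with marker lists. The 8 alveolar type 2 markers, Sftpc among them, summed to 492983 to 627878 normalized counts in the TNF-Tg lungs and 694211 to 834662 in the WT lungs. Some libraries stood apart. In TNF-Tg replicate 1 the ribosomal RNA-like gene Gm42418 took 5.22% of counts, against at most 0.274% in the other lungs. In WT replicate 1 the 10 skeletal muscle markers summed to 82500.5 and the 8 squamous epithelium markers to 106197 normalized counts, against at most 1586 and 955 in the other lungs. Counts of the oxidative phosphorylation genes and of the gene lists that moved are given below also without replicate 1 of both genotypes.

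More nuclear genes were higher than lower in TNF-Tg lungs, and mitochondrial genes were called in the lower direction only, but each side of this depended on a setting or a lung. Of the 91 nuclear genes that passed the filter on low counts, 31 were higher and 6 were lower in TNF-Tg lungs, and of the 13 mitochondrial genes 0 were higher and 5 were lower (quasi-likelihood test of edgeR, adjusted by Benjamini-Hochberg over the 19199 genes tested, cutoff 0.05). Over all genes tested, 24% were higher and 23.4% were lower, 47.4% in all. The share of nuclear genes that were higher was 34.1%, and the share of mitochondrial genes that were lower was 38.5%. The median log2 fold change (TNF-Tg minus WT) was 0.25 over the nuclear genes and −0.56 over the mitochondrial genes, beside 0.03 over all genes tested. With an offset for gene length and GC content 21 nuclear genes were higher and 11 lower, beside 22.1% and 24.9% of all genes (median log2 fold change 0.05), and without WT replicate 2 the mitochondrial median was −0.02 with 1 gene called. Fold changes of single genes are given below with their standard error after ±. The TNF-Tg lungs were all above the WT lungs for 44 of the 91 nuclear genes and all below for 6, where 30.5% and 28.2% of all genes tested had such groups, 58.7% in either direction. In whole lung, fewer cells of a type and less RNA per cell cannot be told apart. No nuclear gene outside 6 restricted isoforms of complex IV was lower by edgeR, at an unadjusted p under 0.05 or by DESeq2 at the adjusted cutoff, whereas with the length and GC offset 5 were (4 of complex I and 1 of complex III). No mitochondrial gene was higher by any of these. Without replicate 1 of both genotypes, the libraries that stood apart, 8 nuclear genes were higher and 6 lower and 0 mitochondrial genes higher and 4 lower, beside 13.8% and 17.4% of all genes. Without TNF-Tg replicate 1, TNF-Tg replicate 2 or WT replicate 1 alone, 16, 19 and 18 nuclear genes were higher, beside 17.2%, 18.6% and 18% of all genes. Without WT replicate 1, 7 nuclear genes were lower, beside 19.8% of all genes. The nuclear genes Cox7b2 and Cox8c, both known from testis, had 1 count and 0 counts over all 6 lungs, where 3 counts were the detection limit, and were not tested.

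**Figure D1:**
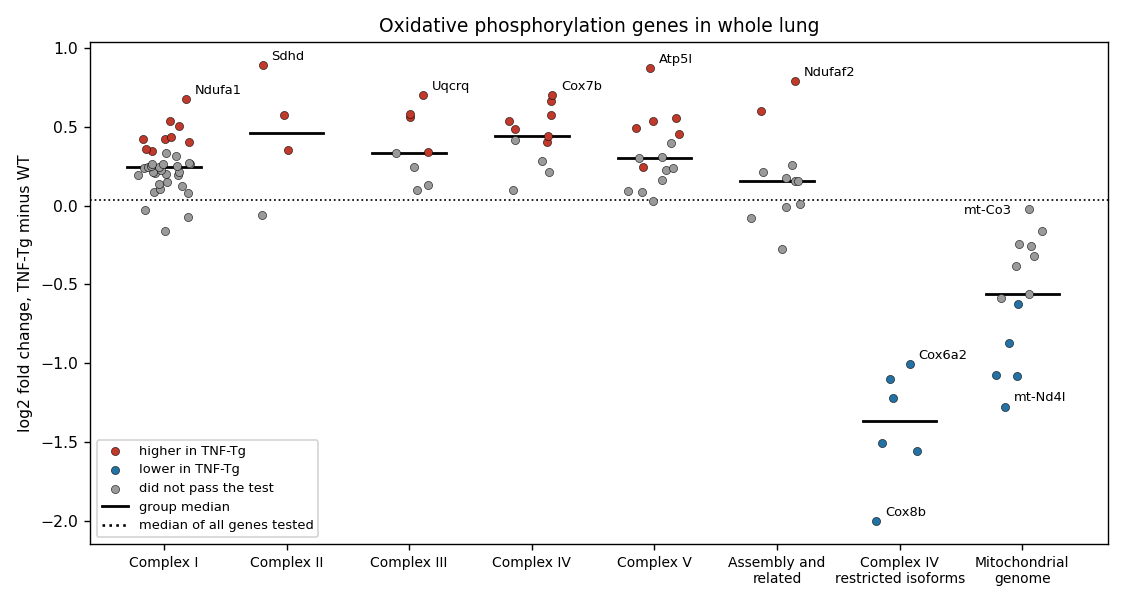
Log2 fold change (TNF-Tg minus WT, 3 lungs each) of the 104 genes tested, one point per gene, grouped by complex, with the complex IV restricted isoforms and the mitochondrial genes apart. Horizontal bars are group medians, the dotted line is the median of all genes tested (0.03). The 6 restricted isoforms lie between −2.0 and −1.0, the 13 mitochondrial genes between −1.27 and −0.02, and most nuclear genes above the dotted line.

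Shares of the total counts of each lung were free of scaling between lungs. The 13 mitochondrial genes took 3.49, 3.03 and 2.45% of counts in the TNF-Tg lungs and 4.02, 5.48 and 3.72% in the WT lungs (2.99 ± 0.518% and 4.41 ± 0.943%, SD, n = 3). All TNF-Tg lungs were below all WT lungs, and WT replicate 2 stood highest. The 93 nuclear genes took 0.647, 0.717 and 0.689% in the TNF-Tg lungs and 0.558, 0.56 and 0.632% in the WT lungs (0.684 ± 0.0356% and 0.583 ± 0.0424%, SD, n = 3), with all TNF-Tg lungs above all WT lungs. The counts of the mitochondrial genes over those of the nuclear genes were 5.39, 4.23 and 3.56 in the TNF-Tg lungs and 7.21, 9.79 and 5.87 in the WT lungs, with means of 4.39 ± 0.926 and 7.63 ± 1.99 (SD, n = 3). The groups did not overlap, and the mean ratio in TNF-Tg lungs was 0.576 times that in WT lungs. With each lung left out in turn, it lay between 0.511 and 0.671 times.

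**Figure D2:**
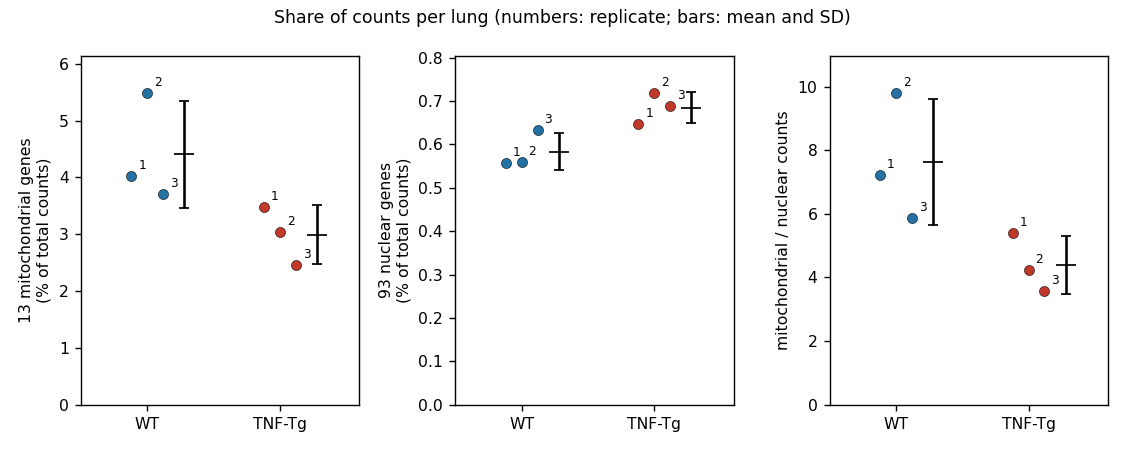
Share of each lung's total counts on the 13 mitochondrial genes (left, percent) and on the 93 nuclear genes (middle, percent), and the ratio of their counts (right), with one point per lung, its replicate number, and the mean with SD beside each group. The WT and TNF-Tg lungs do not overlap in any panel, and WT replicate 2 is highest for the mitochondrial share (5.48%) and the ratio (9.79).

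Complex I, which oxidizes NADH, had 36 nuclear subunits tested, of which 9 were higher, 0 were lower and 27 did not pass the test (median log2 fold change 0.24). The share that was higher, 25%, was near the 24% of all genes tested. With the length and GC offset 8 were higher and 4 lower, beside 22.1% and 24.9% of all genes. At an unadjusted p under 0.05, 13 were higher and 0 lower, beside 28.2% and 26.6% of all genes, and DESeq2 called 8 higher and 0 lower (19.1% and 20.4% of all genes). Ndufa1, a small membrane subunit encoded on chromosome X, had 1096, 1147 and 847 normalized counts in the TNF-Tg lungs and 579, 698 and 654 in the WT lungs. It had the largest log2 fold change in the complex (log2 fold change 0.68 ± 0.14, adjusted p = 0.00503), but with an offset for gene length and GC content it was called lower (log2 fold change −0.34, adjusted p = 0.0432). Ndufc2, another accessory membrane subunit, had 1357, 1249 and 1036 normalized counts in the TNF-Tg lungs and 731, 859.7 and 918 in the WT lungs (a log2 fold change of 0.54 ± 0.13, adjusted p = 0.0117). In both genes all TNF-Tg lungs were above all WT lungs. With the offset, the Ndufc2 log2 fold change was −0.037 and did not pass the cutoff. Ndufv2, an iron-sulfur subunit of the NADH-oxidizing part, rose by a log2 fold change of 0.50 (adjusted p = 0.00585), and lost its call with the offset (0.20). Ndufs3, another core subunit, passed narrowly with groups that overlapped and lost its call under 12 of 19 alternatives (log2 fold change 0.34, adjusted p = 0.0494), while the core subunits Ndufs1, Ndufs7, Ndufs8 and Ndufv1 did not pass the test. Ndufs1, which carries iron-sulfur clusters, had 1363, 1244 and 1378 normalized counts in the TNF-Tg lungs and 1347, 1343 and 1376 in the WT lungs (a log2 fold change of −0.03 (adjusted p = 0.803)). Ndufv1, which binds NADH and the flavin, had a log2 fold change of −0.07 (adjusted p = 0.65), and the groups overlapped in both genes. With the replicate number as a block 4 complex I genes were higher, and with scaling by total counts 5, beside 19.9% and 20.2% of all genes. Without replicate 1 of both genotypes 0 complex I genes were higher, and 2 at an unadjusted p under 0.05, beside 19.5% of all genes.

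Complex II, succinate dehydrogenase, joins the citrate cycle to the chain and has 4 subunits, of which 3 were higher, beside 24% of all genes tested (median log2 fold change 0.46). Sdhd, one of its membrane anchors, had 1826, 1818 and 1874 normalized counts in the TNF-Tg lungs and 888, 944 and 1144 in the WT lungs. It was the largest rise of all the genes described here (log2 fold change 0.89 ± 0.11, adjusted p = 0.000409), and the groups did not overlap. Sdhb, the iron-sulfur subunit, had 2678, 2652 and 2282 normalized counts in the TNF-Tg lungs and 1534, 1873 and 1701 in the WT lungs (a log2 fold change of 0.58 ± 0.11, adjusted p = 0.00342). Sdhc, the other anchor, had a log2 fold change of 0.35 (adjusted p = 0.0295) and lost its call under 7 of 19 alternatives, the length and GC offset among them. Sdha, the flavoprotein that oxidizes succinate, had 5692, 5615 and 5153 normalized counts in the TNF-Tg lungs and 5798, 5494 and 5881 in the WT lungs, with groups that overlapped (log2 fold change −0.06 (adjusted p = 0.624)). Per length, Sdha was at 45.9 and Sdhd at 26.7 RPKM (reads scaled for exon length and library size) in WT lungs, and at 44 and 49.4 in TNF-Tg lungs.

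Complex III, which passes electrons from coenzyme Q to cytochrome c, had 8 nuclear subunits tested, of which 4 were higher, beside 24% of all genes tested (median log2 fold change 0.34). Uqcrq, a small subunit, had 1719, 1745 and 1666 normalized counts in the TNF-Tg lungs and 1082, 854 and 1222 in the WT lungs (a log2 fold change of 0.70 ± 0.13, adjusted p = 0.00319). Uqcrfs1, the Rieske iron-sulfur protein and a catalytic subunit, had 1632, 1661 and 1469 normalized counts in the TNF-Tg lungs and 1119, 991 and 1076 in the WT lungs (a log2 fold change of 0.58 ± 0.09, adjusted p = 0.00157). Uqcrh and Uqcr10, small accessory subunits, had log2 fold changes of 0.56 (adjusted p = 0.0176) and 0.34 (adjusted p = 0.0263). In all 4 genes the TNF-Tg lungs were above the WT lungs. With the length and GC offset 3 genes of the complex were higher and 1 was lower, beside 22.1% and 24.9% of all genes. Uqcrh (0.19) and Uqcr10 (−0.22) did not pass the cutoff in that fit, and Uqcrb was called lower (−0.56, adjusted p = 0.0114). The core protein Uqcrc1 had 4065, 4458 and 3774 normalized counts in the TNF-Tg lungs and 3779, 3674 and 3768 in the WT lungs, with groups that overlapped at the lowest TNF-Tg lung (log2 fold change 0.13 (adjusted p = 0.293)).

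Complex IV, cytochrome c oxidase, had 11 general nuclear subunits tested, of which 7 were higher, beside 24% of all genes tested (median log2 fold change 0.44). With the length and GC offset 2 were higher, beside 22.1% of all genes (median 0.079). Cox7b, a small subunit encoded on chromosome X, had 1494, 1468 and 1479 normalized counts in the TNF-Tg lungs and 988, 886 and 860.2 in the WT lungs. Its groups did not overlap (log2 fold change 0.70 ± 0.09, adjusted p = 0.000522), and with that offset it no longer passed the cutoff (log2 fold change 0.21, adjusted p = 0.102). Cox6b1, on the side that faces cytochrome c, had 4188, 4144 and 3413 normalized counts in the TNF-Tg lungs and 2402, 2247 and 2772 in the WT lungs (a log2 fold change of 0.66 ± 0.12, adjusted p = 0.00294), and it too lost its call with the offset (0.12). Cox5a, a subunit of the matrix side, had 2352, 2074 and 2365 normalized counts in the TNF-Tg lungs and 1550.0, 1527 and 1603 in the WT lungs (a log2 fold change of 0.54 ± 0.09, adjusted p = 0.00165). Cox4i1, the general form of the largest nuclear subunit, had 9226, 10396 and 7689 normalized counts in the TNF-Tg lungs and 5756, 6669 and 8084 in the WT lungs, and the groups overlapped through WT replicate 3. Its log2 fold change of 0.41 (adjusted p = 0.0658) missed the cutoff in the main edgeR fit. Cox4i1 passed under 6 of 19 alternatives. Among them were DESeq2 (log2 fold change 0.38, adjusted p = 0.0406) and edgeR with the length and GC offset (0.46, adjusted p = 0.0196). Ndufa4, named for complex I but now assigned to complex IV, had a log2 fold change of 0.22 (adjusted p = 0.117).

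Complex V had 15 nuclear subunits tested, of which 6 were higher, beside 24% of all genes tested (median log2 fold change 0.30). With the length and GC offset 4 were higher, beside 22.1% of all genes. Atp5l, subunit g of the membrane part, had 4407, 4209 and 3666 normalized counts in the TNF-Tg lungs and 2044, 2266 and 2390.3 in the WT lungs. All TNF-Tg lungs were above all WT lungs (a log2 fold change of 0.87 ± 0.11, adjusted p = 0.00042). Its processed copy Gm10221 was listed at 0.951 to 0.965 of its counts in the 6 lungs, so the gene and the copy may share reads. Atp5c1, the rotating shaft, had 4393, 4749 and 3771 normalized counts in the TNF-Tg lungs and 2775, 3109 and 2898 in the WT lungs (a log2 fold change of 0.56 ± 0.11, adjusted p = 0.00448). The alpha and beta subunits, which form the catalytic head, did not pass the test. Atp5a1 had 15651, 17181 and 13647 normalized counts in the TNF-Tg lungs and 13576, 14505 and 13504 in the WT lungs and Atp5b had 15567, 16908 and 14166 normalized counts in the TNF-Tg lungs and 15786, 15614 and 14395 in the WT lungs. Both had groups that overlapped, with log2 fold changes of 0.16 (adjusted p = 0.313) and 0.03 (adjusted p = 0.869). Among 10 core subunits taken from the 5 complexes (Ndufs1, Ndufv1, Sdha, Sdhb, Uqcrc1, Uqcrfs1, Cox4i1, Cox5a, Atp5a1 and Atp5b), Sdhb, Uqcrfs1 and Cox5a rose, beside 24% of all genes tested. The other 7 did not pass the test, though Cox4i1 passed under 6 of 19 alternatives.

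The prefixes also took 11 assembly and related genes, of which 2 were higher and 0 lower (median log2 fold change 0.16), and DESeq2 gave the same counts. The share higher, 18.2%, was below the 24% of all genes by edgeR and near the 19.1% by DESeq2. Ndufaf2, an assembly factor of complex I, had 145, 174 and 180.3 normalized counts in the TNF-Tg lungs and 87, 88.2 and 114 in the WT lungs (a log2 fold change of 0.79 ± 0.19, adjusted p = 0.0107). Cox7a2l, which takes part in joining complexes III and IV, had 7708, 8053 and 5824 normalized counts in the TNF-Tg lungs and 4110.0, 5063 and 5046 in the WT lungs (a log2 fold change of 0.60 ± 0.15, adjusted p = 0.012). The factors Ndufaf1, Ndufaf3 and Ndufaf7 had log2 fold changes between −0.08 and 0.01. Without replicate 1 of both genotypes, 1 gene of complex II, 2 of complex III, 3 of complex IV, 2 of complex V and 0 of the assembly group were higher, beside 13.8% of all genes. Sdhd, Atp5l, Uqcrq and Uqcrfs1 passed the cutoff under 19 alternatives in normalization, filter, test, pairing, length and left-out lungs.

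Markers of several cell types moved with genotype. All 6 myeloid markers rose, with sums of 285208 to 312267 normalized counts in the TNF-Tg lungs and 87003 to 88829.5 in the WT lungs. Of 6 markers each, 5 of the B and plasma cell list and 5 of the T cell list rose. All 6 alveolar type 1, all 6 endothelial and all 6 club and ciliated cell markers fell, and 5 of 6 fibroblast markers fell. Of the 8 alveolar macrophage markers, a population apart from the myeloid list, 6 fell and 1 rose (median log2 fold change −1.12), and 3 of the 8 alveolar type 2 markers fell. Without replicate 1 of both genotypes, 3 markers each of the B and plasma cell and T cell lists rose, 3 fibroblast, 5 endothelial and 2 alveolar type 2 markers fell, and the counts of the myeloid, alveolar macrophage, alveolar type 1 and club and ciliated lists were as before. No marker of these lists was at 0 in all 6 lungs. The part of such changes in the levels of the oxidative phosphorylation genes was not tested.

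The promoters of the 2 nuclear genes with the largest rises are shown because nuclear subunit genes are known to be bound by NRF1, by NRF2 (an ETS family factor) and by YY1. The 250 bases before the start of each gene were taken from RefSeq on GRCm38.p6, where 74 of the 93 nuclear genes had an entry by symbol. The letters searched on both strands were GCATGCGC for NRF1, CCGGAAG for ETS factors and AAGATGGC for YY1, which do not overlap in the sequences shown. Sdhd is given for chr9:50603850-50604099 and Atp5l for chr9:44920743-44920992, both on the minus strand and written 5′ to 3′ along the gene, with matches in capitals.
Sdhd: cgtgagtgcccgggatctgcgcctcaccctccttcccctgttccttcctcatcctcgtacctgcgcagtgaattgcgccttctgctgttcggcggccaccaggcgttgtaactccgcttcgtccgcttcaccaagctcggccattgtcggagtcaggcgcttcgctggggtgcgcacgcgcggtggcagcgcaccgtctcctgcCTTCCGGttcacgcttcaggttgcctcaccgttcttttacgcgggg
Atp5l: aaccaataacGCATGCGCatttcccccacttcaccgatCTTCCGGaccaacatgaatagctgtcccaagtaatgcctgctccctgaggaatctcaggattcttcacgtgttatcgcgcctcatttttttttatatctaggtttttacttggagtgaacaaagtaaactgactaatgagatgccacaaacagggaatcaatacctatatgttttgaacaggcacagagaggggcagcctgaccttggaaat
Sdhd held the ETS letters on the opposite strand, 46 bases before the start. Atp5l held the NRF1 letters on the same strand, 240 bases before the start, and the ETS letters on the opposite strand, 212 bases before the start. Of the 74 promoters, 9 (12.2%) held the NRF1 letters and 13 (17.6%) the ETS letters, beside 2.25% and 6.9% of the 32817 promoters of the same length in the table. The YY1 letters were in 0 of the 74 and in 1.56% of all. At least one of the motifs was in 9 of the 27 promoters of genes that rose and in 11 of the 43 of genes that did not pass the test.

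Among the nuclear genes 6 fell, and all 6 were complex IV genes with restricted expression, each with a general partner (Cox4i2 and Cox4i1, Cox6a2 and Cox6a1, Cox6b2 and Cox6b1, Cox7a1 and Cox7a2, Cox8b and Cox8a, Ndufa4l2 and Ndufa4). These were all the restricted isoforms that could be tested, with a median log2 fold change of −1.36. Cox8b, the form of subunit 8 in heart, skeletal muscle and brown fat, had 34.3, 22.8 and 50 normalized counts in the TNF-Tg lungs and 199, 123 and 110.2 in the WT lungs (a log2 fold change of −2.0 ± 0.35, adjusted p = 0.00221). Cox7a1, the form of subunit 7a in heart and skeletal muscle, had 47.5, 53.8 and 45.3 normalized counts in the TNF-Tg lungs and 166, 134 and 131 in the WT lungs (a log2 fold change of −1.55 ± 0.20, adjusted p = 0.000515). Cox6a2, the heart and muscle form of subunit 6a, had 522, 487 and 462 normalized counts in the TNF-Tg lungs and 1187, 936 and 825 in the WT lungs (a log2 fold change of −1.0 ± 0.15, adjusted p = 0.00097). In these 3 genes the highest lung was WT replicate 1, the library with skeletal muscle counts. Without that lung their log2 fold changes were −1.72, −1.46 and −0.87, and all passed the cutoff. Cox4i2, a form of subunit 4 that lung is known to express and that takes part in oxygen sensing, had 434, 601 and 601 normalized counts in the TNF-Tg lungs and 1402, 1525 and 1726 in the WT lungs (a log2 fold change of −1.51 ± 0.15, adjusted p = 0.000135). Ndufa4l2, a hypoxia-inducible relative of Ndufa4 found in pericytes, had 431, 577 and 540.0 normalized counts in the TNF-Tg lungs and 1365, 994 and 969 in the WT lungs (a log2 fold change of −1.10 ± 0.17, adjusted p = 0.0012). Cox6b2, known mainly from testis, had 209.6, 134 and 174 normalized counts in the TNF-Tg lungs and 400.4, 388 and 417 in the WT lungs (a log2 fold change of −1.22 ± 0.18, adjusted p = 0.000901). In each of the 6 genes all TNF-Tg lungs were below all WT lungs, and each passed the cutoff under the same 19 alternatives. With counts scaled to the 13 mitochondrial genes, an alternative outside those 19, all 6 stayed below 0 and 2 passed the cutoff (Cox8b, −1.42, and Cox4i2, −0.95), while Cox6a2, Cox6b2, Cox7a1 and Ndufa4l2 did not (adjusted p from 0.0706 to 0.321).

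Ratios of the counts within a lung do not depend on scaling between lungs. Per 100 counts of Cox4i1, Cox4i2 had 4.7, 5.78 and 7.82 counts in the TNF-Tg lungs and 24.4, 22.9 and 21.3 in the WT lungs. Per 100 counts of Cox8a, Cox8b had 0.889, 0.654 and 1.56 in the TNF-Tg lungs and 8.23, 5.09 and 4.08 in the WT lungs. Per 100 counts of Ndufa4, Ndufa4l2 had 26.5, 37.8 and 33.2 in the TNF-Tg lungs and 93.3, 82.6 and 66.8 in the WT lungs. The ratio was lower in every TNF-Tg lung than in every WT lung in all 6 pairs, by 2.12-fold for Cox6a2, 2.49-fold for Ndufa4l2, 3.73-fold for Cox6b2, 3.82-fold for Cox4i2, 3.84-fold for Cox7a1 and 5.65-fold for Cox8b. The two-sided exact permutation test gave p = 0.1 for each, the smallest value that 3 lungs against 3 allow, and 0.133 after adjustment over the 8 pairs compared. The other 2 pairs were genes for the same c-ring protein of complex V. Atp5g1 had 75.4, 69.8 and 65 counts per 100 of Atp5g3 in the TNF-Tg lungs and 73.7, 71.6 and 68 in the WT lungs, which overlapped (exact permutation p = 0.8, n = 3 and 3). Atp5g2 had 155, 157 and 132 per 100 of Atp5g3 in the TNF-Tg lungs and 123, 124 and 137 in the WT lungs, which overlapped too (exact permutation p = 0.2, n = 3 and 3). Atp5g2 shared 34.7% of its 100-base windows with other loci, so its counts are uncertain. Per length, the Ndufa4l2 level was 102% of the Ndufa4 level in WT lungs and 40.9% in TNF-Tg lungs, and the Cox4i2 level was 44.6% and 11.8% of the Cox4i1 level. These percentages use exon lengths merged over all annotated transcripts, so they depend on the annotation as well as on the counts.

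**Figure D3:**
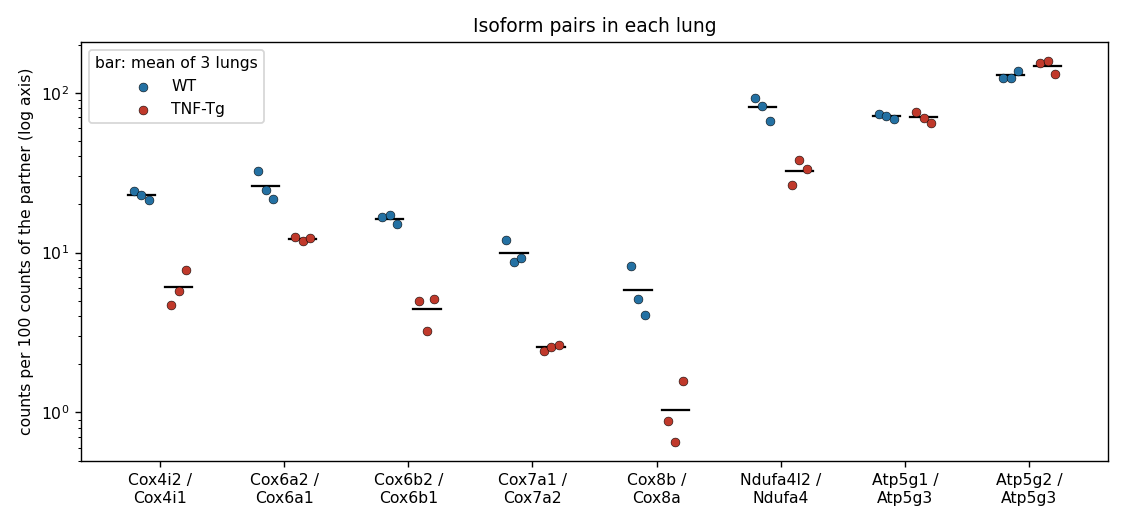
Counts of 8 isoforms per 100 counts of their partner (log axis), one point per lung, WT left and TNF-Tg right, with a bar at the mean of 3 lungs. The 6 complex IV pairs do not overlap between genotypes, and the Atp5g1 and Atp5g2 pairs do.

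Markers of the cell types that are known for these isoforms were measured beside them. All 10 cardiac muscle markers fell (median log2 fold change −1.78), among them Myh6 (log2 fold change −1.94 (adjusted p = 5.27e-05)), and their sum was 10382 to 12673 normalized counts in the TNF-Tg lungs and 35993 to 47862 in the WT lungs. Per 1000 counts of these markers, Cox6a2 had 47.6, 38.4 and 44.5 counts in the TNF-Tg lungs and 24.8, 22.5 and 22.9 in the WT lungs, higher in every TNF-Tg lung. Cox7a1 had 4.33, 4.24 and 4.36 in the TNF-Tg lungs and 3.47, 3.22 and 3.63 in the WT lungs, also higher in every TNF-Tg lung. Cox8b had 3.12, 1.8 and 4.82 in the TNF-Tg lungs and 4.15, 2.94 and 3.06 in the WT lungs, which overlapped. All 10 cardiac muscle markers fell also without replicate 1 of both genotypes. The 8 skeletal muscle markers tested counted 4 that fell, each highest in WT replicate 1. By limma-voom 0 fell (0 at an unadjusted p under 0.05), and without replicate 1 of both genotypes 1 fell. Of these Ckm was also higher in the other WT lungs than in every TNF-Tg lung, and the other 3 overlapped. Besides, 2 of the 6 fat markers tested fell, and by limma-voom 4 fell and 1 rose. Without replicate 1 of both genotypes 2 of the 7 fat markers then tested fell. The pericyte markers moved in both directions. Of the 7 that are not among the genes described here, Kcnj8 and Postn rose and Cspg4 fell, and their sum was 19172 to 26926 normalized counts in the TNF-Tg lungs and 13391 to 19062 in the WT lungs. Postn alone made up 50.3 to 60.5% of that sum in the TNF-Tg lungs and 34.5 to 36.9% in the WT lungs. Without replicate 1 of both genotypes, 2 of 9 pericyte markers rose and 2 fell, with Cox4i2 and Ndufa4l2 counted among the 9. Per 1000 counts of the pericyte markers, Cox4i2 had 22.6, 28.3 and 22.3 counts in the TNF-Tg lungs and 77.9, 80 and 129 in the WT lungs. Ndufa4l2 had 22.5, 27.2 and 20.1 in the TNF-Tg lungs and 75.8, 52.1 and 72.3 in the WT lungs, so both were lower in every TNF-Tg lung relative to these markers. With Postn left out, a choice made after seeing the data, Cox4i2 had 49.5, 57.1 and 56.6 per 1000 in the TNF-Tg lungs and 123, 126 and 197 in the WT lungs, and Ndufa4l2 had 49.2, 54.8 and 50.8 and 120.1, 82.4 and 110.4, again without overlap. The part of the muscle markers' change in the fall of Cox6a2, Cox7a1 and Cox8b was not tested further.

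The promoters of 3 restricted isoforms and their partners are shown side by side, because the members of each pair are alternatives for 1 place in the complex. Each line gives the 250 bases before the start (RefSeq, GRCm38.p6), 5′ to 3′ along the gene, with each CG dinucleotide in capitals. Cox8b is given for chr7:140900447-140900696, Cox8a for chr19:7217617-7217866, Cox7a2 for chr9:79759854-79760103, Cox6b2 for chr7:4753095-4753344 and Cox6b1 for chr7:30626115-30626364, all on the minus strand, and Cox7a1 for chr7:30183921-30184170 on the plus strand.
Cox8b: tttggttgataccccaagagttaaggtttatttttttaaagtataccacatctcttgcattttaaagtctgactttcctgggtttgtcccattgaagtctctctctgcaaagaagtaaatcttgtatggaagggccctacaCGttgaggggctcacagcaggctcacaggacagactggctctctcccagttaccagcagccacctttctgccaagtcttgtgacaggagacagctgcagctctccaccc
Cox8a: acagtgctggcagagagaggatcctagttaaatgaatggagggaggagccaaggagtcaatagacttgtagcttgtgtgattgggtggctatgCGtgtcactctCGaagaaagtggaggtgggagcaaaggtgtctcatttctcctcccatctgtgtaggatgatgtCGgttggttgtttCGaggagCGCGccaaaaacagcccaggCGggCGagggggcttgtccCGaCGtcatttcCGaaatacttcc
Cox7a1: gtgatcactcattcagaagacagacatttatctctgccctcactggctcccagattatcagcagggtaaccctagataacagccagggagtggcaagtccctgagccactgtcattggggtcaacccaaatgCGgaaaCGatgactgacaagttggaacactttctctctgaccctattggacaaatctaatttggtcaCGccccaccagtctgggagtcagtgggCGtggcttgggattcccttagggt
Cox7a2: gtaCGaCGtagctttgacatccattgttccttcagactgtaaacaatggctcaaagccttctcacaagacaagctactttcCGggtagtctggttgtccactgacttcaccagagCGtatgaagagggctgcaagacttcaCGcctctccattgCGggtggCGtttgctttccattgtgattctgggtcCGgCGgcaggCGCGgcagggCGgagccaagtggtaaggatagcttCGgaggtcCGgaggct
Cox6b2: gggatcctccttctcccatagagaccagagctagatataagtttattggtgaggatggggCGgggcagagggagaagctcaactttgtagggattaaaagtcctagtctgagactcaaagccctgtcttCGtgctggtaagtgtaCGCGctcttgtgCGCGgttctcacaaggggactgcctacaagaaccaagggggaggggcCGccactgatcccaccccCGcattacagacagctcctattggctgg
Cox6b1: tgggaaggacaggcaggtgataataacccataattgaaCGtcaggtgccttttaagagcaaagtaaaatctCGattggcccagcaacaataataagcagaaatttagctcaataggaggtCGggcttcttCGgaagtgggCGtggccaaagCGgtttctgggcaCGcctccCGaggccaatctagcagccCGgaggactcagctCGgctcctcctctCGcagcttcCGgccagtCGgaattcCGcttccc
Cox8b had 1 CG and Cox8a had 11, Cox7a1 had 4 and Cox7a2 had 14, and Cox6b2 had 8 and Cox6b1 had 14. The median was 15 CG in the 70 promoters of nuclear genes outside the restricted isoforms (range 4 to 35), and 6 over all promoters in the table. The NRF1, ETS and YY1 letters were found in 0 of the 4 restricted isoform promoters in the table, and of the partners shown only Cox6b1 held one, the ETS letters 28 bases before the start on the opposite strand.

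The 13 mitochondrial genes all had log2 fold changes below 0, from −1.27 to −0.02, and 5 passed the cutoff. The 5 were mt-Nd2, mt-Nd4, mt-Nd4l, mt-Nd5 and mt-Cytb. At an unadjusted p under 0.05, 6 were lower and 0 higher, beside 26.6% and 28.2% of all genes. mt-Nd4l, a small complex I subunit, had 6707, 6056 and 3825 normalized counts in the TNF-Tg lungs and 11569, 19055 and 9499 in the WT lungs (a log2 fold change of −1.27 ± 0.29, adjusted p = 0.00809). mt-Nd4, whose coding sequence overlaps the end of mt-Nd4l by 7 bases, had 100530.0, 78304 and 54074 normalized counts in the TNF-Tg lungs and 133927, 236612 and 121283 in the WT lungs (a log2 fold change of −1.08 ± 0.32, adjusted p = 0.0246). In both genes all TNF-Tg lungs were below all WT lungs. mt-Nd2, another proton-pumping subunit of complex I, had 53089.8, 33998 and 25677 normalized counts in the TNF-Tg lungs and 66822, 119315 and 51584 in the WT lungs, and the groups overlapped between TNF-Tg replicate 1 and WT replicate 3 (log2 fold change −1.08 ± 0.36, adjusted p = 0.0388). mt-Nd5 had 53629, 50565 and 32026 normalized counts in the TNF-Tg lungs and 75205, 111346 and 63097 in the WT lungs (a log2 fold change of −0.87 ± 0.27, adjusted p = 0.0286). mt-Cytb, the cytochrome b of complex III, had 112203, 98696 and 76746 normalized counts in the TNF-Tg lungs and 150831, 170371 and 122913 in the WT lungs (a log2 fold change of −0.63 ± 0.21, adjusted p = 0.0385). Neither mt-Nd5 nor mt-Cytb had groups that overlapped. By DESeq2 5 were lower too, with mt-Co1 in place of mt-Nd2.

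The other 8 mitochondrial genes did not pass the cutoff. mt-Co1, which holds the site where oxygen is reduced, had 311519, 256832 and 209202 normalized counts in the TNF-Tg lungs and 381094, 427251 and 335924 in the WT lungs, with groups apart and a log2 fold change of −0.56 (adjusted p = 0.0756). It passed the cutoff by DESeq2 and limma-voom, and in edgeR with robust dispersion, with scaling by total counts and with the offset for length and GC content. mt-Co2, which receives electrons from cytochrome c, had 174911, 152263 and 96765 normalized counts in the TNF-Tg lungs and 131394, 205951 and 135669 in the WT lungs (a log2 fold change of −0.16 (adjusted p = 0.667)). mt-Co3 had 140570.0, 108722 and 73081 normalized counts in the TNF-Tg lungs and 95593, 143907 and 87185 in the WT lungs (a log2 fold change of −0.02 (adjusted p = 0.962)). mt-Atp6, the channel subunit of complex V, had a log2 fold change of −0.32 (adjusted p = 0.431), mt-Atp8 of −0.59 (adjusted p = 0.426), mt-Nd1 of −0.26 (adjusted p = 0.56) and mt-Nd3 of −0.25 (adjusted p = 0.58). mt-Nd6, encoded on the other strand of the circle, had 137, 165 and 173 normalized counts in the TNF-Tg lungs and 130.0, 329.7 and 162 in the WT lungs (a log2 fold change of −0.38 (adjusted p = 0.373)). TNF-Tg replicate 1 was the highest TNF-Tg lung for every mitochondrial gene but mt-Nd6, and WT replicate 2 was the highest WT lung for all 13 genes. Without TNF-Tg replicate 2, TNF-Tg replicate 3 or WT replicate 2, 1 mitochondrial gene, mt-Nd4l, passed the cutoff each time, where 19%, 20.8% and 19.5% of all genes were lower. Without WT replicate 2 the median log2 fold change of the 13 was −0.02, and 6 of them changed sign, mt-Co3 (0.23), mt-Atp8 (0.16), mt-Nd3 (0.12), mt-Nd6 (0.12), mt-Nd1 (0.10) and mt-Co2 (0.08), none of which passed the cutoff.

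The proportions among the mitochondrial genes were described within each lung. Ratios within a lung were taken over mt-Co3, which was chosen with its values known and had the smallest fold change of the 13, so ratios over it lie lower by its choice and are given as a description. mt-Nd4 over mt-Co3, a ratio of counts within a lung, was 0.715, 0.72 and 0.74 in the TNF-Tg lungs and 1.4, 1.64 and 1.39 in the WT lungs. mt-Nd5 over mt-Co3 was 0.382, 0.465 and 0.438 in the TNF-Tg lungs and 0.787, 0.774 and 0.724 in the WT lungs. mt-Nd2 over mt-Co3 was 0.378, 0.313 and 0.351 in the TNF-Tg lungs and 0.699, 0.829 and 0.592 in the WT lungs. Outside complex I, mt-Co1 over mt-Co3 was 2.22, 2.36 and 2.86 in the TNF-Tg lungs and 3.99, 2.97 and 3.85 in the WT lungs, and mt-Cytb and mt-Atp6 over mt-Co3 were lower in every TNF-Tg lung too. mt-Co2 over mt-Co3 was 1.24, 1.4 and 1.32 and 1.37, 1.43 and 1.56, which overlapped. As shares of the 13 genes, mt-Co2 and mt-Co3 were above the WT lungs in every TNF-Tg lung, mt-Nd2, mt-Nd4, mt-Nd4l and mt-Nd5 were below, and the other 7, mt-Co1, mt-Cytb and mt-Atp6 among them, overlapped. The mt-Co3 share was 12, 11.5 and 10.8% in the TNF-Tg lungs and 7.92, 8.42 and 8.14% in the WT lungs. When edgeR was run on counts scaled to the sum of the 13, an alternative chosen after seeing the data, 0 of the 13 passed the cutoff and 1 was lower at an unadjusted p under 0.05 (8.4% of all genes), while 24.7% of all genes were higher and 6.31% lower, and mt-Co3 had a log2 fold change of 0.49. The 5 genes over 1000 bases (mt-Nd2, mt-Co1, mt-Cytb, mt-Nd4 and mt-Nd5) had log2 fold changes from −1.08 to −0.56, and the 8 up to 1000 bases had a median of −0.29, with mt-Nd4l at −1.27.

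**Figure D4:**
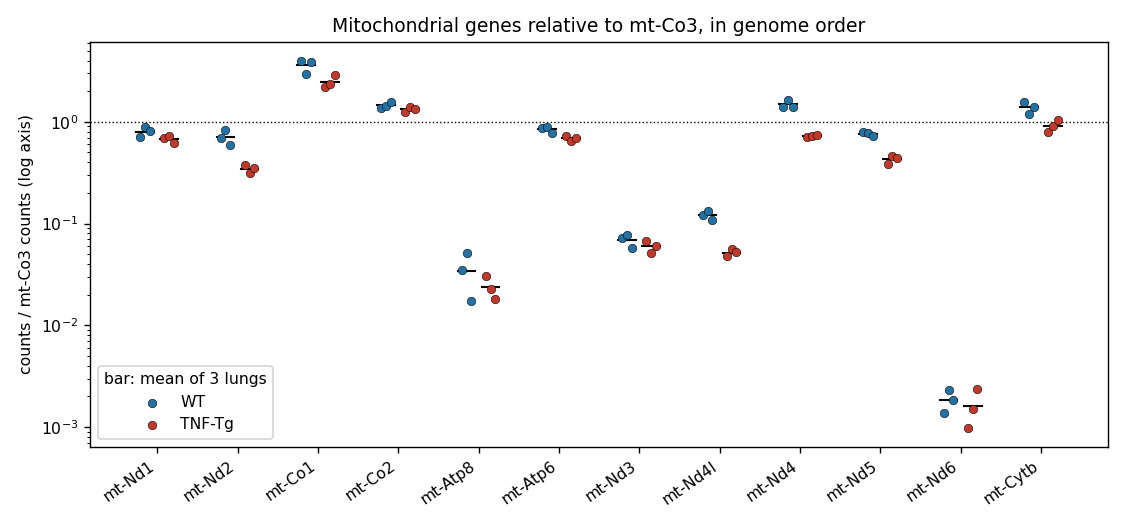
Counts of 12 mitochondrial genes over the counts of mt-Co3 in the same lung (log axis), in their order along mitochondrial DNA, one point per lung, WT left and TNF-Tg right, with a bar at the mean of 3 lungs. mt-Nd2, mt-Nd4l, mt-Nd4, mt-Nd5, mt-Co1, mt-Cytb and mt-Atp6 lie lower in every TNF-Tg lung than in every WT lung, and mt-Co2, mt-Nd1, mt-Nd3, mt-Nd6 and mt-Atp8 overlap. mt-Co3 changed least of the 13, so ratios over it lie low by its choice.

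The counts of several mitochondrial genes cannot be told apart from those of nuclear copies of mitochondrial DNA. GENCODE M21 lists 7 of the 10 copies found here in 1 stretch of chromosome 1 (24611535 to 24616197, GRCm38). mt-Co2 shared 99.5% of its 100-base windows with Gm28661, and the 2 rows of the table differed by at most 0.0458% of counts in each lung. The same held for mt-Co3 and Gm28437 (at most 0.357%), mt-Nd3 and Gm28438 (0.0925%) and mt-Nd4l and Gm10222 (0.197%). The study's methods speak of uniquely mapped transcripts, while these rows held near-equal counts, and how reads that match both places were counted was not settled. The 10 copies held 1.36 to 2.78% of counts per lung. Leaving the copies out before scaling moved no count of mitochondrial genes called. mt-Atp6 was listed below its copy Gm10925, which had 1.15 to 1.28 times its counts. In mitochondrial DNA the end of mt-Atp8 overlaps the start of mt-Atp6 by 43 bases (chromosome M, 7927 to 7969, plus strand), and none of the 10 copies is of mt-Atp8. The overlap is shown in capitals with 15 bases on each side, from the GENCODE M21 transcripts.
mt-Atp8 and mt-Atp6: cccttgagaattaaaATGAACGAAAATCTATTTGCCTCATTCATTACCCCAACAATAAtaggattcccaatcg
Reads on these bases belong to both genes, so the levels of mt-Atp8 and mt-Atp6 are uncertain. mt-Nd1, mt-Nd5, mt-Nd6, mt-Cytb and mt-Atp8 shared no window with another locus among the GENCODE M21 transcripts. The genome outside annotated transcripts was not searched. On chromosome 1 the mt-Atp6 copy Gm10925 ends at 24614651 and the mt-Co2 copy Gm28661 starts at 24614885. In mitochondrial DNA mt-Atp8 starts between mt-Co2 and mt-Atp6. Whether the bases between these copies match mt-Atp8 was not tested.

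Gene length moved with the result. The nuclear genes described here are short, with a median summed exon length of 1578 bases beside 3574 over the genes tested. Over the other genes tested, the median log2 fold change was 0.51 in those up to 1000 bases and −0.10 in those over 5000 bases. Among nuclear genes outside the restricted isoforms it was 0.29 up to 1000 bases (18 genes), below that of the other genes, and between 0.23 and 0.28 in the classes from 1000 to 5000 bases, where the other genes had medians from −0.02 to 0.11. Over 5000 bases it was 0.055 (4 genes). With an offset for length and GC content per lung, 21 nuclear genes were higher and 11 lower (22.1% and 24.9% of all genes), with a median log2 fold change of 0.05. Of the 31 rises 15 remained, among them Sdhd, Atp5l, Uqcrq, Sdhb, Cox5a, Uqcrfs1 and Ndufaf2, and all 6 restricted isoforms stayed lower. Under the offset the log2 fold change was 0.59 for Sdhd, 0.76 for Atp5l, 0.56 for Uqcrq, 0.29 for Uqcrfs1 and 0.22 for Cox5a. Lengths were summed over the merged exons of all annotated transcripts, which can exceed the length of the main RNA of a gene. By this measure Atp5l was in the class over 5000 bases, so the offset treated it as a long gene. The rises that no longer passed were those of Ndufa1, Ndufb8, Ndufc2, Ndufs5, Ndufv2, Sdhc, Uqcr10, Uqcrh, Cox6b1, Cox6c, Cox7a2, Cox7b, Cox7c, Cox8a, Atp5f1 and Atp5g3. Ndufa1, with an exon length of 419 bases, was called lower at −0.34. Of the 104 genes tested, 32 changed sign under the offset. The offset placed all 13 mitochondrial genes lower (median −1.32), from a curve that rests on nuclear genes.

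**Figure D5:**
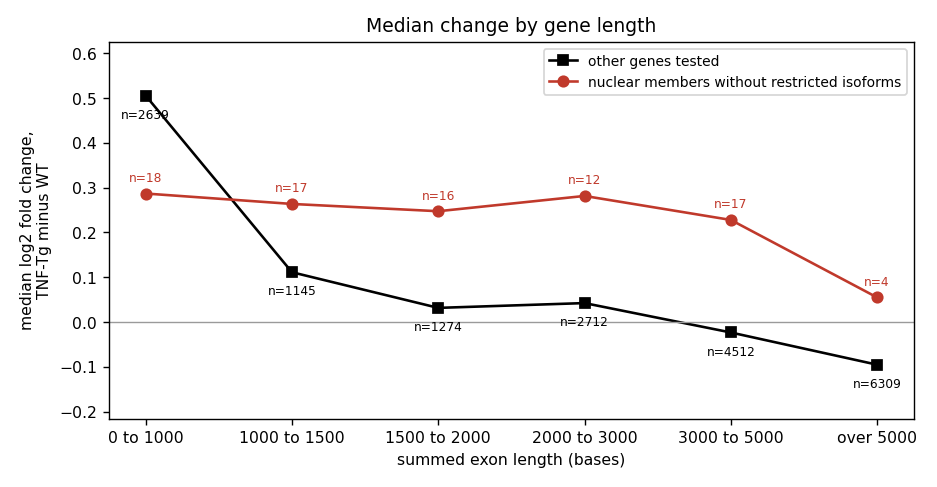
Median log2 fold change (TNF-Tg minus WT) by class of summed exon length, for nuclear oxidative phosphorylation genes outside the restricted isoforms (circles) and for the other genes tested (squares), with the number of genes at each point. The other genes fall from 0.51 to −0.10 with length, and the oxidative phosphorylation genes stay between 0.23 and 0.29 up to 5000 bases.

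The other genes of the pathway were described from lists chosen by function, and their counts stand beside 24% of all genes higher and 23.4% lower. Of 19 genes that copy and express mitochondrial DNA, 2 rose and 1 fell. Tfam, which packages mitochondrial DNA and starts its transcription, had a log2 fold change of 0.41 (adjusted p = 0.0339), and Ssbp1, the single-strand binding protein, of 0.45 (adjusted p = 0.0125), while Mterf4 had −0.41 (adjusted p = 0.0357). Of 11 biogenesis regulators tested, 3 rose and 1 fell. Ppargc1b, a coactivator of these genes, had a log2 fold change of 1.76 (adjusted p = 0.00264), and the nuclear receptor Esrrg of −1.82 (adjusted p = 0.00111). Nfe2l2 and Tfam, which is on both lists, were the other 2 that rose. Of 15 genes for the mobile carriers and coenzyme Q synthesis, Cycs (cytochrome c) rose (0.41) and Coq8b fell (−0.45). Of 22 complex IV assembly genes outside the prefixes, Coa6 rose (0.90) and 0 fell, while with the length and GC offset 0 rose and 2 fell. Of 8 complex I assembly genes outside the prefixes, 0 passed the cutoff and 1 was higher at an unadjusted p under 0.05. Of 13 assembly genes of complexes II, III and V, Sdhaf1 (0.87) and Sdhaf2 (0.34) rose and Uqcc1 fell (−0.36). Of 17 citrate cycle genes, 1 rose (Dld, 0.32) and 2 fell (Ogdh, −0.70, and Idh2, −0.36). Of 13 carriers and outer membrane genes 5 rose, with Slc25a5, an ATP and ADP exchanger, at 0.79 (adjusted p = 0.000332) and Timm23, a protein import channel, at 0.74 (adjusted p = 0.000663). Of 7 uncoupling and related proteins tested, Atpif1, the inhibitor of complex V, rose (0.42), and Ucp3 (−1.27) and Ndufa4l2 fell. Without replicate 1 of both genotypes, where 13.8% of all genes were higher and 17.4% lower, 0 genes of the mitochondrial DNA list and 0 of the assembly list of complexes II, III and V passed the cutoff (0 higher and 1 lower, and 2 higher and 1 lower, at an unadjusted p under 0.05). In that fit 2 biogenesis regulators rose and 1 fell, 3 carriers rose, and 1 complex IV assembly gene rose. The mobile carrier list then had 0 higher and 2 lower, the citrate cycle list 0 and 2, and the uncoupling list 0 and 1. With the length and GC offset the mitochondrial DNA list had 1 higher and 1 lower, the citrate cycle list 0 and 3, and the carriers 4 and 1. The medians of these lists lay between −0.25 and 0.24, beside 0.03 over all genes tested.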

How the data were processed

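Bulk RNA-sequencing counts of whole lungs from 3 TNF-Tg and 3 WT female mice were analysed. Per the labels and methods, the authors cleaned reads with Trimmomatic (version 0.36 in the processing notes), mapped them to the mouse genome (GRCm38.p5) with STAR (version 2.5.2b) and named featureCounts. The deposited values are raw counts of reads per gene symbol, 1 column per mouse, not normalized. The methods speak of uniquely mapped transcripts, but near-identical nuclear copies held nearly the counts of the mitochondrial genes, so how reads mapping to several places were counted is unsettled. The strand setting and the annotation are not given in the sources used here. Each column is a separate mouse, so p-values measure the spread between these mice.

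Genotype was the single term of a quasi-likelihood fit in edgeR (version 4.0.16, under R version 4.3.3), with filterByExpr, TMM scaling and a Benjamini-Hochberg adjusted cutoff of 0.05. Standard errors were obtained from the fold change and its F statistic. Normalized counts are scaled to the mean effective library size. RPKM used exon lengths summed over all annotated transcripts of a gene, merged where they overlap, from GENCODE M21, which held 105 of the 106 genes. Isoform ratios (pseudocount 0.5) were compared by exact permutation tests with SciPy (version 1.17.1). Intervals of counting error were not needed because values are given per lung. Programs were tested on simulated counts.

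The members and gene lists were chosen with earlier results of these data known. Genes named are the 13 mitochondrial genes, 10 core subunits (another gene under this rule is not reported here), the isoform pairs, within each complex the 2 largest rises and 2 largest falls among called genes (average log2 CPM 1 or more), and the 2 largest of each other list. Further genes were chosen after their values were seen. Alternatives were DESeq2 (version 1.42.0), limma-voom (limma version 3.58.1), other scalings and filters, robust dispersion, a replicate block, a length and GC offset (a value for 97.1% of genes), and left-out lungs. Promoters came from RefSeq by symbol.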

Additional observations from a re-analysis of the deposited data

How the results depend on the processing

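With each lung left out in turn, 7347 to 9164 genes were called (3392 to 4571 higher, 3734 to 4593 lower), the nuclear genes higher ranged from 16 to 41 and the mitochondrial genes lower from 1 to 5. Those higher ranged from 2 to 14 in complex I, 2 to 3 in complex II, 2 to 5 in complex III, 5 to 9 in complex IV, 4 to 8 in complex V and 1 to 2 in the assembly group, and the mitochondrial median log2 fold change from −0.75 to −0.022. The isoform ratio Atp5g1/Atp5g3 ranged from −0.078 to 0.029 in log2 and turned positive without TNF-Tg replicate 3 (0.029) or WT replicate 1 (0.0029). Without replicate 1 of both genotypes, 2689 genes and 8 nuclear genes were higher, with 0 in complex I, 1 in II, 2 in III, 3 in IV, 2 in V and 0 in the assembly group. Under a cutoff that also asked for an absolute log2 fold change of 1 or more, 4320 genes were called (1980 higher, 2340 lower), 3 mitochondrial genes were lower, and 0 nuclear genes were higher in any complex or in the assembly group. Scaling by total counts left 5 complex I genes higher, beside 20.2% of all genes.

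With the length and GC offset, 11 nuclear and 13 mitochondrial genes were lower, 2 complex IV genes were higher, and the medians were 0.052 (nuclear) and −1.32 (mitochondrial). Of all genes, 24.9% were lower and 22.1% higher in that fit. The log2 fold changes of 32 of the 104 genes tested changed sign with the offset, 30 of them to negative. Those past the cutoff with or without it were Cox7c (−0.015), Ndufa1 (−0.34), Ndufa2 (−0.36), Ndufb3 (−0.39), Ndufb6 (−0.44), Ndufc2 (−0.037), Ndufs5 (−0.073), Uqcr10 (−0.22) and Uqcrb (−0.56). The cause of these moves was not tested. Scaling to the 13 mitochondrial genes, chosen after seeing the data, left 0 of them lower, with a median of −0.028, and 2 of the 6 restricted complex IV isoforms were lower.

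The replicate numbers showed no sign of pairing (correlations of deviations −0.24 to −0.0043 over same numbers, with a mean of 0.066 over different numbers). The deviations were taken from means of 3 lungs, so this check cannot settle whether mice were paired. With the number as a replicate block, 23 nuclear genes were higher, 4 of them in complex I, and 4 mitochondrial genes were lower. Of all genes, 19.9% were higher and 20.1% lower with that block. With the replicate block and the length and GC offset, 12 nuclear genes were higher (3 in complex I, 2 in III, 1 in IV, 3 in V, 1 in the assembly group) and 13 mitochondrial genes lower, with medians of 0.053 and −1.31. The shares of all genes called in that combined fit are not given here, so its counts stand without a background. The sign changed for 32 genes there too, and those past a cutoff were Cox7c (−0.010), Ndufa1 (−0.33), Ndufb6 (−0.45), Ndufc2 (−0.037), Ndufs5 (−0.073), Uqcr10 (−0.22) and Uqcrb (−0.56). Of 414 values under alternatives for results that answer a comparison, 359 kept their direction and side of the threshold or stayed near the reported value, 33 were weaker, 4 stronger, 16 moved and 2 changed sign. A floor of 3 counts set the detection limit, which touched only Cox7b2 and Cox8c.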
